A study of Mus musculus with 10 samples.

Results

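Potassium channel genes were followed in NSC/NPCs, the neural stem and progenitor cells that were cultured from the subependymal zone (SEZ) of adult mice, at 2 stages and in 2 genotypes. Members were all genes in the deposited count table whose symbol starts with Kcn and that encode a channel subunit or a regulatory subunit, whatever their values. Of the 48795 genes listed, 94 were members, and 5 further Kcn symbols of noncoding transcripts were left out. A gene was tested when it had at least 10 counts in at least 2 of the 10 libraries, which held for 63 of the 94 members and for 16797 genes in all. The tested members comprised 10 of 15 inward rectifier subunits (Kcnj), 7 of 14 two-pore subunits (Kcnk), 26 of 40 pore subunits of voltage-gated channels, 10 of 12 subunits of calcium- or sodium-activated channels, and 10 of 13 auxiliary proteins of voltage-gated channels.

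The cultures came from the SEZ of mice aged 10 weeks. Proliferating cells were grown as floating neurospheres with EGF and FGF and were collected at 3 DIV (days in vitro; PRO), although the text of the study speaks of older neurospheres. Cells at the onset of differentiation were plated on Matrigel with FGF for 2 days and then kept without mitogens in 2% fetal bovine serum for 24 h (2 + 1 DIV; DIFF), so that mitogens, serum and substrate changed together between the stages and cannot be told apart. The wild-type (WT) cultures gave 3 libraries of each stage (WT_PRO, WT_DIFF). Cultures of p27KO mice, which carry a mutation of Cdkn1b in all their cells on a C57BL/6 J background, gave 2 libraries of each stage (p27KO_PRO, p27KO_DIFF). Cdkn1b encodes p27, an inhibitor of cyclin-dependent kinases.

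Potassium channels let potassium ions leave or enter a cell along their gradient, and they set the resting potential and shape electrical activity. Inward rectifiers pass current most easily at negative potentials and carry much of the potassium uptake of astrocytes, two-pore channels give background leak currents, voltage-gated channels open on depolarisation, and calcium-activated channels couple the potential to calcium signals. A functional channel is built of several pore subunits, often with auxiliary proteins that change its gating or its transport to the membrane. In the SEZ lineage, astrocyte-like stem cells have leak and inward rectifier currents, while their neuronal progeny acquire voltage-gated currents as they mature.

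The libraries held between 19190068 and 25291674 counts, and the first principal component of all tested genes, with 70.4% of the variance, separated the stages. Cdkn1b was not lost in the libraries labelled p27KO. It measured 102.7 to 112.5 CPM (the count scaled to the library total) in WT_PRO, 205.2 to 208.6 in WT_DIFF, 90.7 to 113.8 in p27KO_PRO and 137.2 to 140.2 in p27KO_DIFF, so that the groups overlapped in neurospheres and were apart after withdrawal (log2 fold change of -0.56 ± 0.10 SE, adjusted p = 0.0202). Part of a gene can still be transcribed from a mutated allele, so this count does not check the labels. The description labels of the p27KO libraries name WT cells, while their titles and genotype labels give p27KO, and these were followed. Xist, a transcript of the inactive X chromosome, stood at 2258 to 3595 CPM in the p27KO libraries and at 1.16 to 2.57 in the WT libraries, and 4 Y-linked genes together at no more than 0.585 against at least 188.6. Genotype and the sex of the cells therefore cannot be told apart, which bears on each genotype comparison and most directly on the X-linked members Kcnd1 and Kcne1l.

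Marker genes of cell types were summed as CPM to check what the cultures held. The 5 markers of dividing cells were at 1870 to 2040 in WT_PRO, 133 to 253 in WT_DIFF, 2000 to 2150 in p27KO_PRO and 627 to 730 in p27KO_DIFF, and all 5 were lower after withdrawal in both genotypes and higher in p27KO_DIFF than in WT_DIFF. The 10 astrocyte markers, of which 9 were tested, went from 1720 to 1860 in WT_PRO up to 5360 to 5980 in WT_DIFF, and 7 of them rose. Microglial markers stayed at or under 0.58. The 6 endothelial markers were at 13.8 to 50.4 in WT_PRO, 5.69 to 13.0 in WT_DIFF, 22.3 to 36.1 in p27KO_PRO and 6.86 to 14.0 in p27KO_DIFF. Of these, Cdh5 and Cldn5 were at 0 in every library, whereas in WT cells Flt1 fell (-3.80 ± 0.80, adjusted p = 0.00404) and Kdr rose (1.90 ± 0.36, adjusted p = 0.00105). In such bulk samples, fewer cells of a type and less RNA per cell cannot be told apart, and the part of cell composition in the changes given here was not tested.

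Levels of different genes were compared per length, as CPM per kilobase (kb) of annotated exon. Among the members with the highest levels over the 10 libraries were Kcnj10 (120), the main inward rectifier subunit of astrocytes, which led, Kcnip3 (48.2), Kcnd2 (30.9), Kcnk2 (29.4), Kcnd3 (23.4), Kcnc1 (20.5), Kcnj16 (20.4), Kcna2 (15.3) and Kcnmb4 (14.1). In WT_PRO the order began with Kcnip3 (74.0 ± 10.3 CPM per kb, SD, n = 3) and Kcnj10 (51.1 ± 4.37), which were further apart than their spread. Kcnj16 (31.5 ± 4.91), Kcnd3 (28.7 ± 2.00), Kcnd2 (26.7 ± 1.97) and Kcnc1 (25.9 ± 8.52) came next. Kcnj16 was below Kcnj10 by more than the spread, while neighbours among these 4 genes did not differ beyond it. In WT_DIFF Kcnj10 led with 157 ± 17.8, more than the other members by far, and Kcnk2 (46.7 ± 3.03), Kcnd2 (41.5 ± 7.64) and Kcnip3 (24.9 ± 7.85) followed, of which Kcnk2 and Kcnd2 overlapped.

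The sum over all 94 members was 319 ± 16.3 CPM per kb in WT_PRO and 412 ± 24.2 in WT_DIFF (SD, n = 3), and 325 ± 2.13 in p27KO_PRO and 455 ± 12.2 in p27KO_DIFF (SD, n = 2). What made up this sum differed between the stages. Inward rectifier subunits took 26.6% ± 2.43 of it in WT_PRO and 42.2% ± 3.00 in WT_DIFF, and two-pore subunits 4.0% ± 0.57 and 13.0% ± 1.54. Auxiliary proteins of voltage-gated channels went the other way, from 25.4% ± 2.62 to 7.36% ± 1.87, and so did the voltage-gated pore subunits, from 38.6% ± 2.44 to 29.3% ± 1.87. Kcnj10 alone made up 16% ± 1.14 of the sum in WT_PRO and 38.1% ± 2.92 in WT_DIFF, and Kcnip3 23.1% ± 2.31 and 5.98% ± 1.60. These shares sum to 100 within a library, so that a share can move because another member does.

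**Figure D1:**
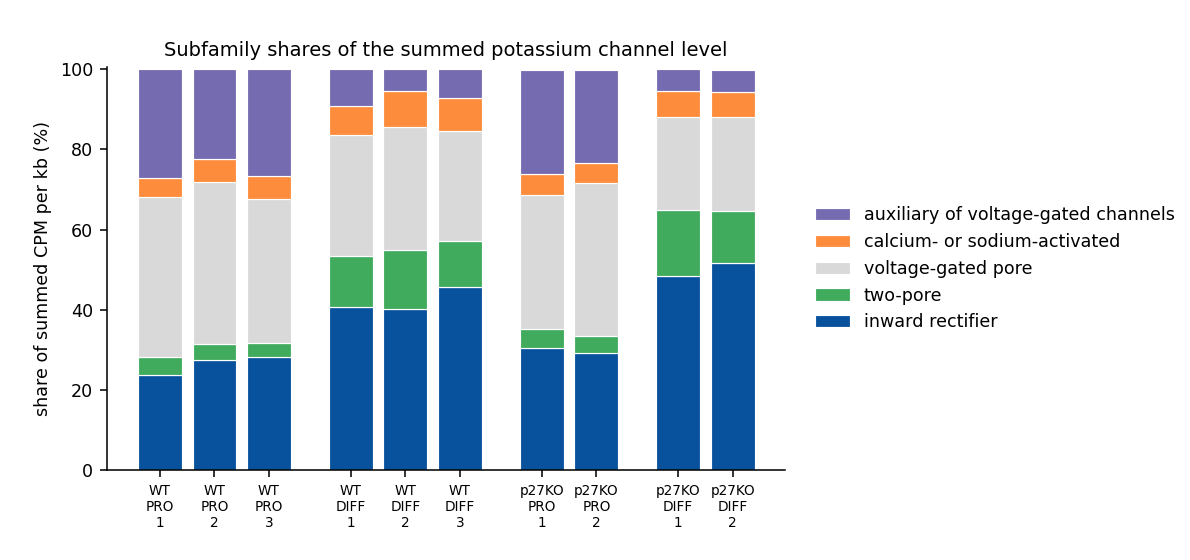
Share of each subfamily in the summed CPM per kb of the 94 potassium channel genes, in percent, with 1 stacked bar for each of the 10 libraries grouped by genotype and stage. Inward rectifiers took 23.8 to 28.3% in the 3 WT_PRO libraries and 40.3 to 45.7% in the 3 WT_DIFF libraries, and auxiliary proteins 22.3 to 27% and 5.51 to 9.24%.

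The sequence just before the transcription start was read from the reference genome for 6 members with large stage changes, so that the stretches before genes that rose and before genes that fell can be set side by side. Each sequence covers the 200 bases before the most upstream RefSeq start of the gene in GRCm38.p6 mouse, 5′ to 3′ on the strand of the gene, and lies outside annotated exons. Capitals mark the letters of the motifs searched on both strands, which were the GC box GGGCGG, the CCAAT box CCAAT, the TATA box TATAAA, the E-box CAGCTG and the E2F motif TTCCCGC. The first 3 genes rose after mitogen withdrawal in WT cells and the last 3 fell.
Kcnj10, chr1:172341010-172341209, plus strand: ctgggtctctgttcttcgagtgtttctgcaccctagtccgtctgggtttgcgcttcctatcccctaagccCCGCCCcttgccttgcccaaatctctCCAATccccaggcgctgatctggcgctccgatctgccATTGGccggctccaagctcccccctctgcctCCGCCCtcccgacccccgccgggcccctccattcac
Kcnk2, chr1:189402274-189402473, minus strand: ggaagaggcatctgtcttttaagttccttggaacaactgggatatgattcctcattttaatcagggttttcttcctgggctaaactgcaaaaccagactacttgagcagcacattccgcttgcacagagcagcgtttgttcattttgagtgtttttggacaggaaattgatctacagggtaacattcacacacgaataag
Kcnn3, chr3:89519964-89520163, plus strand: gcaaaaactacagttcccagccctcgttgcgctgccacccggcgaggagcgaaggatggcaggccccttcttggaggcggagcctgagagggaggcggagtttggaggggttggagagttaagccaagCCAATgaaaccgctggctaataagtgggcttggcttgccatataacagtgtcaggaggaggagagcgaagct
Kcnj16, chr11:110967833-110968032, plus strand: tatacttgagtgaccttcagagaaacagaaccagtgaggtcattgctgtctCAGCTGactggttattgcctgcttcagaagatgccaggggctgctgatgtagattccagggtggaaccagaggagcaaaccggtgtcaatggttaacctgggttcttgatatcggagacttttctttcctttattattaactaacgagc
Kcnip3, chr2:127522095-127522294, minus strand: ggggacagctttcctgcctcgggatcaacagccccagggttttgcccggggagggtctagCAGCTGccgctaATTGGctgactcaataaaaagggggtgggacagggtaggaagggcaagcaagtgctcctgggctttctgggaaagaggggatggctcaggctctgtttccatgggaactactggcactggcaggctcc
Kcnn4, chr7:24370063-24370262, plus strand: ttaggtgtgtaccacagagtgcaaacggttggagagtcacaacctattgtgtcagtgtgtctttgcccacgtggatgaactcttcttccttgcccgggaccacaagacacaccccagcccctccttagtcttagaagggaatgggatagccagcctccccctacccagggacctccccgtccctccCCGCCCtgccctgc

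The window of Kcnj10 was the most GC-rich of the 6, with 65.0% G and C, and held 2 GC boxes and 2 CCAAT boxes. That of Kcnk2 had 42.0% G and C and none of the 5 motifs, and that of Kcnj16 had 46.0% and 1 E-box. The windows of Kcnn3 and Kcnip3 each held 1 CCAAT box, with an E-box besides in Kcnip3, and that of Kcnn4 held 1 GC box. Over 32851 RefSeq starts the median was 53.0% G and C, and 31.0% of the windows held a GC box, 29.3% a CCAAT box, 10.9% the E-box, 9.96% the TATA box and 3.28% the E2F motif. The 46 tested members with a RefSeq start had 69 such starts. Of the windows before these starts, 44.9% held a GC box, 21.7% a CCAAT box, 17.4% the E-box, 2.9% the TATA box and 4.35% the E2F motif. A match is a description of the letters and not a site in use.

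The first comparison asked how the potassium channel genes of WT cells changed from proliferating neurospheres to the onset of differentiation. In the WT cells 48 of the 63 tested members changed, 30 of them upwards and 18 downwards (edgeR, adjusted p under 0.05), and 15 did not pass. This was 76.2% of the members tested, against 62.1% of all 16797 genes tested, and by direction 47.6% rose against 30.8% of all genes and 28.6% fell against 31.2%. The median log2 fold change was 0.61 over the tested members and 0.03 over all genes tested. Some members reached 10 counts only in libraries of the stage where they were higher. Among them were Kcnj6, Kcnj9, Kcnj12, Kcnj3, Kcna4, Kcna1, Kcnn4, Kcne1l, Kcne2 and Kcnmb1. The filter thus partly fixed their direction, also where they are given singly below, and they enter these shares and medians. By subfamily, 5 inward rectifiers rose and 2 fell (median of 0.92), 2 two-pore subunits rose and 1 fell (0.41), 12 voltage-gated pore subunits rose and 9 fell (0.53), 5 calcium- or sodium-activated subunits rose and 3 fell (1.29), and 6 auxiliary proteins rose and 3 fell (1.57). With the stricter filter of the study, which tested 32 members, 14 rose and 11 fell. Each subfamily held members that rose and members that fell.

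**Figure D2:**
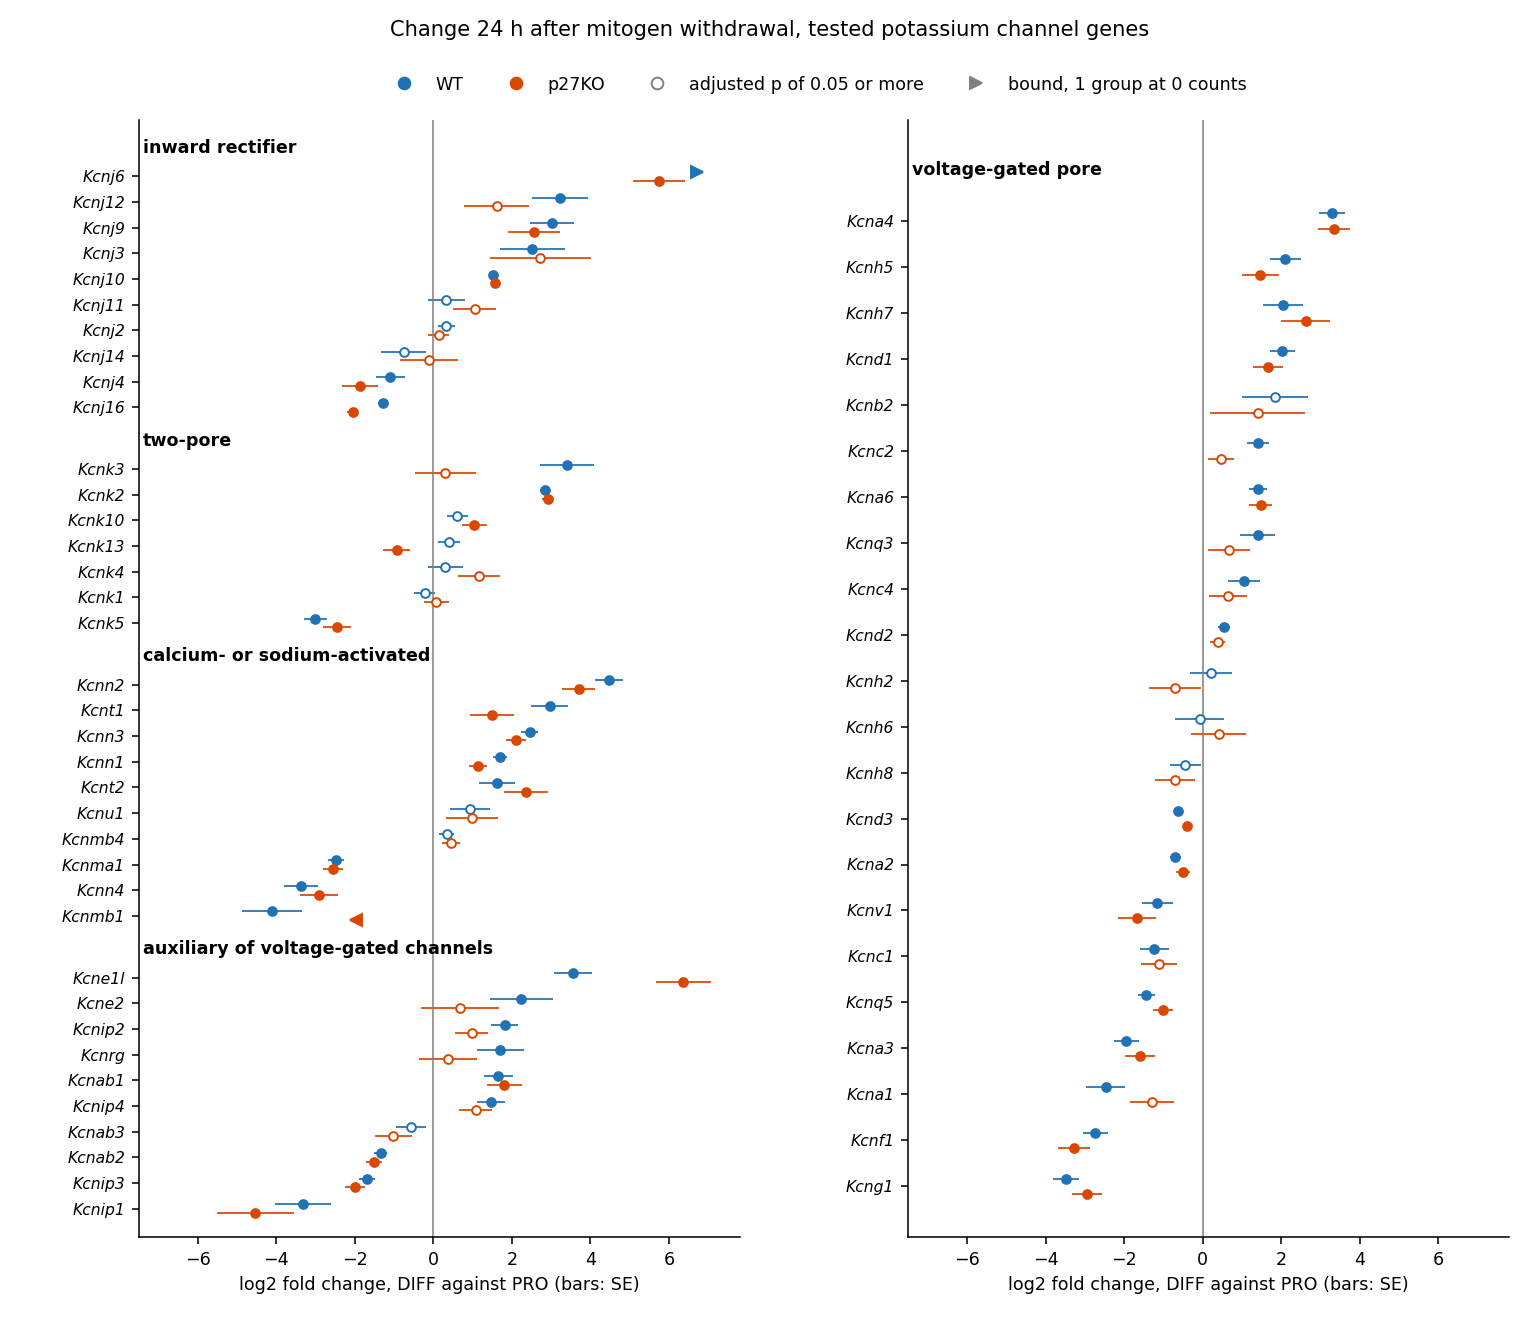
Log2 fold change from PRO to DIFF of 59 of the 63 tested potassium channel genes, grouped by subfamily, with bars of 1 SE, for WT (blue) and p27KO (orange) cells. Filled points passed an adjusted p of 0.05, open points did not, and triangles are bounds for genes with 0 counts in 1 of the groups. Of the WT points that passed 27 lie above 0 and 18 below, and no gene passed in opposite directions in the 2 genotypes.

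The 2 most abundant inward rectifiers were subunits that can join in 1 channel. Kcnj10 encodes the main inward rectifier of astrocytes, and Kcnj16 a subunit that forms no large current alone but joins Kcnj10 into channels that respond to pH. Kcnj10 was at 281, 251 and 298 CPM in WT_PRO (276 ± 23.6, SD, n = 3) and at 847, 754 and 947 in WT_DIFF (850 ± 96.2), and rose by 1.51 ± 0.10 (log2 fold change ± SE, adjusted p = 9.02e-07). Kcnj16 was at 102, 140 and 130 CPM in WT_PRO (124 ± 19.3) and at 54.9, 51.0 and 58.1 in WT_DIFF (54.7 ± 3.56), and fell (-1.29 ± 0.12, adjusted p = 7.02e-06). No DIFF library of either gene reached into the range of the PRO libraries, and the partners moved in opposite directions. Their ratio per kb was 1.31 to 2.00 in the WT_PRO libraries (1.66 ± 0.344) and 10.8 to 11.9 in the WT_DIFF libraries (11.3 ± 0.549).

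The G protein-gated inward rectifiers, which transmitters open through G protein subunits, were at or near 0 in neurospheres. Kcnj6 had 0 counts in all 3 WT_PRO libraries and 140, 68 and 122 counts in WT_DIFF, which is at least 105-fold higher against a floor of 3 counts over the group. Kcnj9 was at 0.313, 0.0399 and 0.0922 CPM in WT_PRO and 0.967, 1.33 and 1.5 in WT_DIFF (3.03 ± 0.56, adjusted p = 0.000886), and the value was 4.1 without WT_PRO 1. Kcnj3 was at most at 0.0922 CPM in WT_PRO and at 0.611, 0.166 and 0.435 in WT_DIFF (2.52 ± 0.82, adjusted p = 0.0215), but it did not pass without WT_PRO 1, WT_DIFF 1 or WT_DIFF 3 (adjusted p of 0.0518 to 0.0649) or with the replicate number as a block (0.0558). Kcnj5, of the same group, was not tested and had 0, 4 and 4 counts in WT_PRO and 0 in each WT_DIFF library. Transcripts of Kcnj6 and Kcnj9 were thus more abundant after withdrawal, at a low level, since even Kcnj6 did not go beyond 7.12 CPM.

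Of the other inward rectifiers, Kcnj12, a subunit of the strongly rectifying group, was at 0 to 0.12 CPM in WT_PRO and 0.497 to 0.865 in WT_DIFF and rose (3.23 ± 0.72, adjusted p = 0.0029, and 4.36 without WT_PRO 2). Kcnj4, of the same group, was at 1.2, 1.56 and 1.25 CPM in WT_PRO and at 1.07, 0.539 and 0.435 in WT_DIFF. It fell (-1.09 ± 0.37, adjusted p = 0.0249), but not without WT_PRO 2, WT_DIFF 2 or WT_DIFF 3 (0.081 to 0.0892). Kcnj2, also of that group, did not pass (0.33 ± 0.22, adjusted p = 0.211), and neither did Kcnj11, the pore of channels gated by ATP (0.33 ± 0.47, adjusted p = 0.564), nor Kcnj14 (-0.75 ± 0.57, adjusted p = 0.279).

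**Figure D3:**
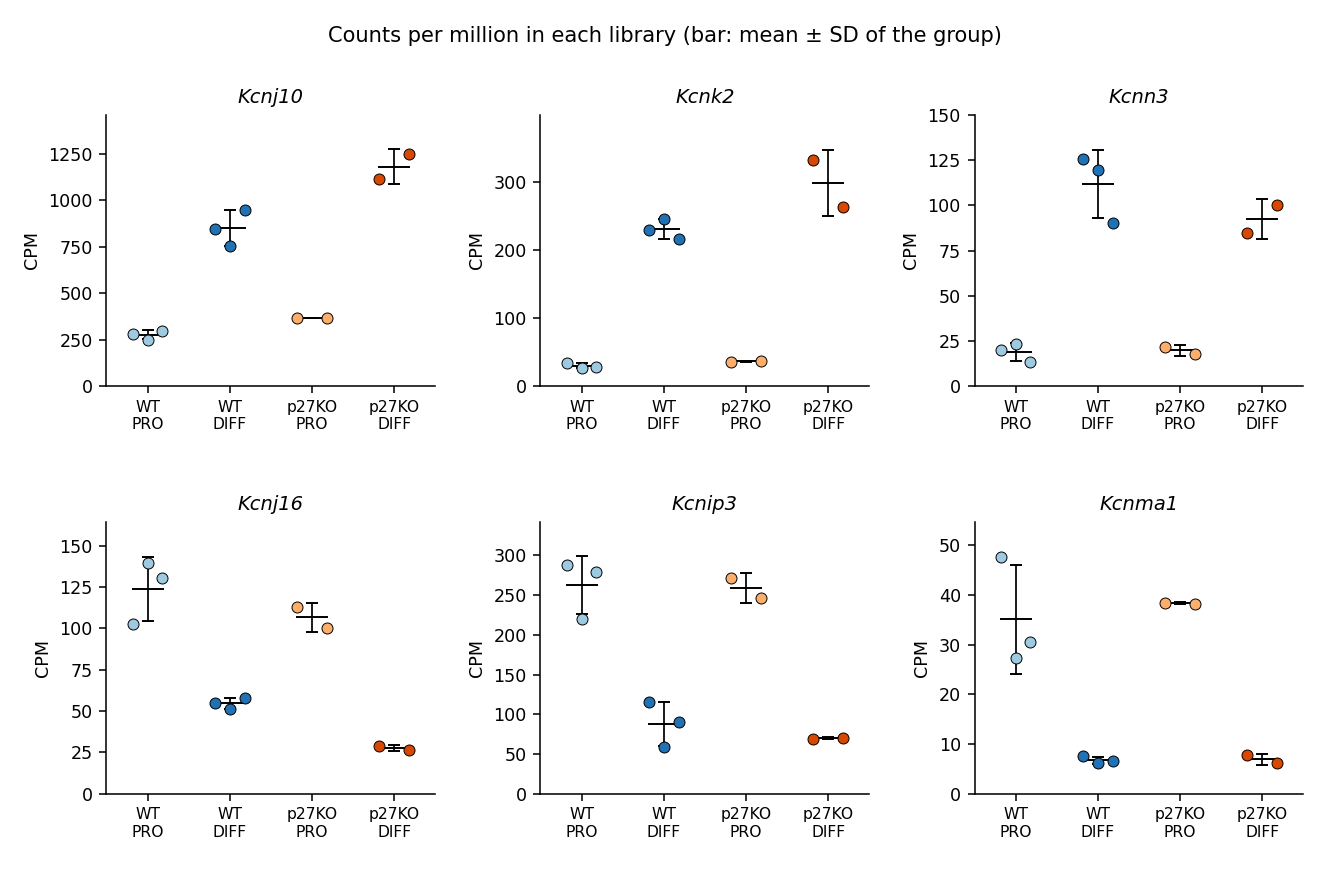
CPM of Kcnj10, Kcnk2, Kcnn3, Kcnj16, Kcnip3 and Kcnma1 in each of the 10 libraries, with 1 point per library and the mean and SD of each group. In each panel the PRO and DIFF libraries of a genotype do not overlap, with Kcnk2 at 27.5 to 34.4 in WT_PRO and 216 to 246 in WT_DIFF and Kcnma1 at 27.3 to 47.6 and 6.17 to 7.58.

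Two-pore channels changed in fewer members but by large amounts. Kcnk2, a leak channel gated by membrane stretch, lipids and heat, was at 34.4, 27.5 and 28.3 CPM in WT_PRO and 230, 246 and 216 in WT_DIFF, and rose by 2.84 ± 0.13 (adjusted p = 7.43e-08). Kcnk5, a leak channel that opens in alkaline medium, was at 4.59, 4.95 and 5.21 CPM in WT_PRO and 0.814, 0.414 and 0.751 in WT_DIFF, and fell (-3.00 ± 0.30, adjusted p = 1.27e-05). Neither gene overlapped between the stages, and the ratio of Kcnk2 to Kcnk5 per kb went from 3.74 to 5.16 in the WT_PRO libraries to 195 to 409 in the WT_DIFF libraries. Kcnk3, an acid-sensitive leak channel, was at 0.319 to 0.469 CPM in WT_PRO and at 9.41, 2.49 and 1.42 in WT_DIFF (3.40 ± 0.69, adjusted p = 0.00175). The first WT_DIFF library carried much of that size, and without it the value was 2.26 and still passed (adjusted p = 0.00103).

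The remaining tested two-pore genes, Kcnk1 (-0.21 ± 0.27), Kcnk4 (0.31 ± 0.44), Kcnk10 (0.61 ± 0.26, adjusted p = 0.0629) and Kcnk13 (0.41 ± 0.28), did not pass in WT cells. Kcnk10, the closest relative of Kcnk2, was at 2.49 to 2.67 CPM in WT_PRO and 3.90 to 4.71 in WT_DIFF, ranges that do not overlap. It passed with the filter of the study (0.71, adjusted p = 0.0291), in a fit of the compared groups alone (0.0225), with a block in which the p27KO numbers were crossed (0.0284, chosen after seeing the data) and without p27KO_PRO 1 (0.0299) or p27KO_PRO 2 (0.0322). Kcnk1 was the second most abundant of the group per kb (4.22 over all libraries), with 5.58 to 12.7 CPM in WT_PRO and 7.16 to 9.26 in WT_DIFF.

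The calcium-activated channels split by conductance. The 3 genes of small-conductance (SK) channels, which calcium opens through bound calmodulin, all rose. Kcnn3 was at 20.3, 23.3 and 13.4 CPM in WT_PRO and 126, 119 and 90.2 in WT_DIFF (2.45 ± 0.21, adjusted p = 7.11e-06). Kcnn2 was at 0.365, 1.08 and 0.83 CPM in WT_PRO and 24.7, 15.2 and 16.1 in WT_DIFF (4.48 ± 0.35, adjusted p = 2.59e-06), and Kcnn1 at 1.56 to 1.98 and 6.21 to 6.84 (1.70 ± 0.18, adjusted p = 2.24e-05). Every WT_DIFF library was above every WT_PRO library for all 3 SK genes. Kcnn4, the channel of intermediate conductance known from lymphocytes and other dividing cells, fell from 0.834, 1.56 and 1.11 CPM to 0.153, 0.0829 and 0.119 (-3.37 ± 0.43, adjusted p = 7.17e-05).

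Kcnma1, the pore of the large-conductance (BK) channel, which both calcium and voltage open, was at 47.6, 27.3 and 30.5 CPM in WT_PRO and 7.58, 6.17 and 6.56 in WT_DIFF, and fell (-2.48 ± 0.21, adjusted p = 3.86e-06). The BK auxiliary subunit Kcnmb1, known from smooth muscle, had 37 counts over the WT_PRO libraries and 2 over WT_DIFF, which is 19.4-fold lower, with an exact 95% counting interval of 5.00 to 166. Kcnmb4, the main BK auxiliary subunit of brain, did not pass, at 35.6, 39.2 and 45.5 CPM in WT_PRO and 37.8, 56.6 and 69.5 in WT_DIFF (0.34 ± 0.19, adjusted p = 0.147). It passed with a block for the replicate number (0.31, adjusted p = 0.0428) and without WT_DIFF 1 (0.57, adjusted p = 0.00367). The summed level of the 3 SK genes per kb was 0.832 to 1.74 times that of Kcnma1 in WT_PRO and 31.7 to 40.7 times in WT_DIFF.

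The sodium-activated genes Kcnt1 and Kcnt2 rose as well. Kcnt1 was at 2.19, 1.28 and 1.01 CPM in WT_PRO and 20.8, 10.9 and 5.69 in WT_DIFF (2.96 ± 0.46, adjusted p = 0.000382), and Kcnt2 at 0.313 to 0.738 and 1.34 to 3.00 (1.63 ± 0.45, adjusted p = 0.010). The stages did not overlap in either gene, although the WT_DIFF libraries of Kcnt1 differed widely among themselves. Kcnu1, a pore known from sperm, did not pass (0.94 ± 0.51, adjusted p = 0.134).

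**Figure D4:**
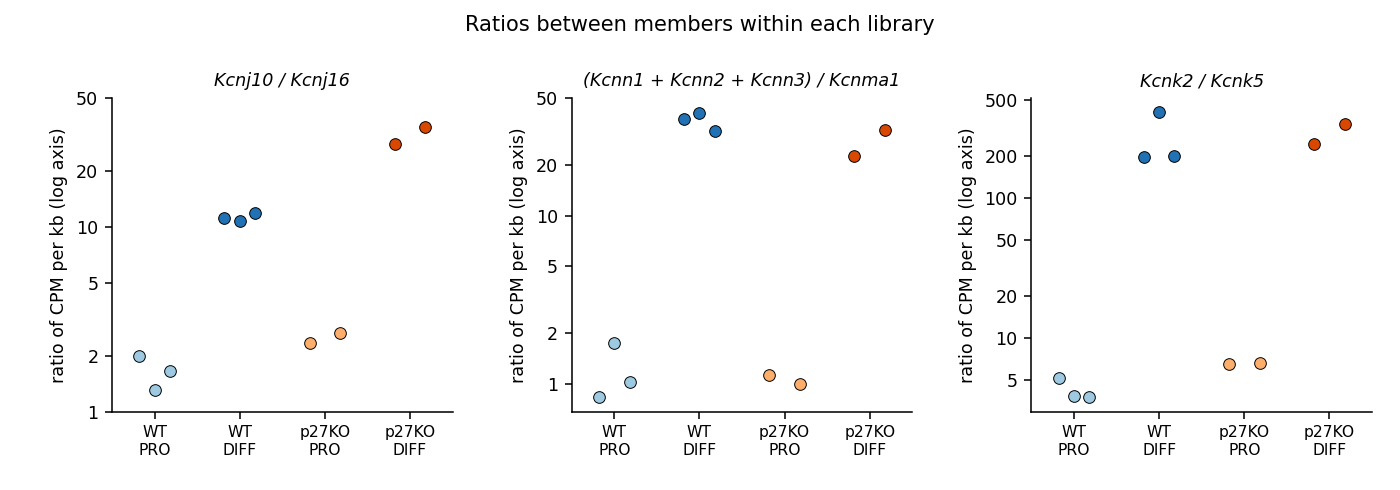
Ratios of CPM per kb in each of the 10 libraries on a log axis, for Kcnj10 to Kcnj16, the summed SK genes Kcnn1, Kcnn2 and Kcnn3 to Kcnma1, and Kcnk2 to Kcnk5. All DIFF libraries lie above all PRO libraries in each of the 3 ratios, and the p27KO_DIFF libraries (28.1 and 34.7) lie above the WT_DIFF libraries (10.8 to 11.9) in the first.

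The pore subunits of voltage-gated channels were the largest group. Among those that rose in WT cells, Kcna4, a pore of fast inactivating currents, was at 0.208, 0.279 and 0.138 CPM in WT_PRO and 1.99, 2.07 and 2.73 in WT_DIFF (3.29 ± 0.34, adjusted p = 1.58e-05). Kcnh5, of the ether-a-go-go group, rose by 2.10 ± 0.39 (adjusted p = 0.000929), from 0.399 to 1.15 CPM in WT_PRO to 3.00 to 4.39 in WT_DIFF. Kcnh7, which makes slowly deactivating currents, rose by 2.03 ± 0.51 (adjusted p = 0.00571), and by 2.65 without WT_PRO 3. Kcnd1, which makes transient currents, rose by 2.02 ± 0.31 (adjusted p = 0.000288). All 4 were higher in every WT_DIFF library than in any WT_PRO library, and none went beyond 6.21 CPM.

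Some abundant pore genes moved by smaller amounts. Kcnd2, the pore of somatic and dendritic transient currents, was at 141, 126 and 146 CPM in WT_PRO and 251, 173 and 218 in WT_DIFF and rose (0.53 ± 0.15, adjusted p = 0.0119), whereas its relative Kcnd3 was at 262, 297 and 267 and at 186, 202 and 183 and fell (-0.63 ± 0.10, adjusted p = 0.000244). Kcna6, a delayed rectifier pore, rose (1.41 ± 0.24, adjusted p = 0.00063), while Kcna2, which is known from axons, was at 251, 208 and 212 CPM and at 131, 184 and 129 and fell (-0.69 ± 0.15, adjusted p = 0.00207). Within both the Kcnd and the Kcna group, then, abundant members moved in opposite directions. Kcnc2, of the fast delayed rectifiers, rose as well (1.42 ± 0.28, adjusted p = 0.00137).

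Kcnc1, a pore of fast firing neurons, was at 308, 272 and 154 CPM in WT_PRO and 78.5, 148 and 108 in WT_DIFF (-1.23 ± 0.37, adjusted p = 0.0195). It did not pass with the replicate number as a block (0.0682) or without WT_PRO 1, WT_PRO 2, WT_DIFF 1 or WT_DIFF 3 (0.054 to 0.0681). Kcnc4 rose by 1.04 ± 0.41 (adjusted p = 0.0472) and lost the call when any library but WT_PRO 3 or the p27KO_PRO libraries was left out (0.0588 to 0.125).

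The strongest decreases of pore genes were in subunits that form no channel on their own and modify other pores. Kcng1 was at 5.00, 3.87 and 4.1 CPM in WT_PRO and 0.611, 0.249 and 0.395 in WT_DIFF (-3.48 ± 0.33, adjusted p = 8.47e-06), and Kcnf1 at 9.22, 5.19 and 5.39 and at 1.22, 1.24 and 0.712 (-2.74 ± 0.32, adjusted p = 3.99e-05). Kcnv1, another such modifier, fell (-1.16 ± 0.40, adjusted p = 0.0279), although its groups overlapped (4.23 to 10.3 and 1.57 to 4.63 CPM), and it did not pass without WT_PRO 1, WT_PRO 3 or WT_DIFF 2 (0.0537 to 0.121). Kcnb2, a delayed rectifier pore, did not pass (1.83 ± 0.85, adjusted p = 0.0834) except when replicate number entered as a block (0.0456). Kcna1 (-2.47 ± 0.50, adjusted p = 0.00153), Kcna3 (-1.95 ± 0.32, adjusted p = 0.000463) and Kcnq5 (-1.43 ± 0.21, adjusted p = 0.000201) fell too. Kcnh6 (-0.08 ± 0.62, adjusted p = 0.923) and Kcnh8 (-0.44 ± 0.40, adjusted p = 0.36) did not pass.

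The auxiliary proteins held the most abundant member of neurospheres. Kcnip3, a calcium-binding protein that acts both on Kcnd channels and as a repressor of transcription, was at 288, 220 and 278 CPM in WT_PRO (262 ± 36.5, SD, n = 3) and 115, 59.5 and 90.1 in WT_DIFF (88.2 ± 27.8), and fell (-1.68 ± 0.20, adjusted p = 6.71e-05). Kcnip1, another partner of Kcnd channels, was at 20.2, 4.47 and 5.30 CPM in WT_PRO and 2.14, 0.539 and 0.633 in WT_DIFF (-3.31 ± 0.71, adjusted p = 0.00325), with values of -2.27 without WT_PRO 1 and -4.15 without WT_DIFF 1. The first library stood high in both stages. By contrast, Kcnip2 (1.81 ± 0.34, adjusted p = 0.00107) and Kcnip4 (1.48 ± 0.35, adjusted p = 0.00442) rose, from at most 0.997 and 0.886 CPM in WT_PRO.

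The beta subunit Kcnab2 was at 29.3, 21.2 and 23.1 CPM in WT_PRO and 12.4, 8.21 and 10.8 in WT_DIFF and fell (-1.34 ± 0.16, adjusted p = 5.39e-05), while Kcnab1 rose (1.65 ± 0.37, adjusted p = 0.00293) and Kcnab3 did not pass (-0.56 ± 0.38, adjusted p = 0.216). Kcne1l, an X-linked single-pass subunit, was at 0.104, 0.0798 and 0.0922 CPM in WT_PRO and 1.63, 0.87 and 1.15 in WT_DIFF (3.55 ± 0.48, adjusted p = 0.000117). Kcne2, of the same family, rose by 2.24 ± 0.79 (adjusted p = 0.031), by 2.95 without WT_PRO 3, but did not pass with the replicate number as a block (0.0601) or without WT_PRO 1, WT_PRO 2, WT_DIFF 1 or WT_DIFF 3 (0.0581 to 0.0994). Kcnrg, which hinders the assembly of voltage-gated channels, rose by 1.71 ± 0.60 (adjusted p = 0.029) and by 2.89 without WT_PRO 3, but not without WT_PRO 1, WT_PRO 2, WT_DIFF 1 or WT_DIFF 3 (0.0526 to 0.0976). The auxiliary proteins that fell were the abundant ones, at 4.47 CPM or more in every WT_PRO library, and the 6 that rose were all under 1 CPM there. Of these 6, Kcne1l and Kcne2 passed the filter only through DIFF libraries, so that the filter partly fixed this contrast.

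Some members differed widely between the WT_DIFF libraries. Kcnq3, a pore of slow non-inactivating currents that restrain firing, was at 9.07, 8.02 and 6.78 CPM in WT_PRO and 37.2, 15.9 and 14.7 in WT_DIFF (1.40 ± 0.44, adjusted p = 0.0218), and did not pass without WT_DIFF 1 (0.86, adjusted p = 0.0653), WT_PRO 2 (0.0567) or WT_PRO 3 (0.0698). Kcnh2, of the ether-a-go-go group, was at 15.4, 4.31 and 3.72 CPM in WT_DIFF and 9.07, 5.42 and 4.29 in WT_PRO and did not pass (0.21 ± 0.53, adjusted p = 0.754). Without WT_DIFF 1 its value was -0.72 (adjusted p = 0.0844). WT_DIFF 1 was the highest of the 3 for Kcnq3, Kcnh2, Kcnk3, Kcnt1 and Kcnip1. It was the lowest of the 3 for Kcnh7, Kcnu1, Kcnmb4 and Kcnc1.

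Some markers of neuronal and oligodendroglial cells varied between the same libraries, but not in 1 order. Dcx, of neuroblasts, was at 55.9, 14.5 and 35.2 CPM in the 3 WT_DIFF libraries, and Gpr17, of differentiating oligodendrocyte precursors, at 61.6, 4.39 and 23.5. Tubb3 and Pdgfra were also highest in WT_DIFF 1. Other genes of these lists were not, with Gad1 at 12.6, 23.3 and 5.38, Map2 at 1391, 1537 and 1665 and Olig1 at 668, 589 and 711. The summed neuronal markers, most of which was Map2, were at 1490 to 1730 in WT_DIFF and 1260 to 1520 in WT_PRO, and the oligodendroglial ones at 699 to 906 and 1160 to 1550. Stmn2, a marker of postmitotic neurons, was at or under 0.0791 CPM in every library. The part of these cells in the spread of the channel genes was not tested.

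**Figure D5:**
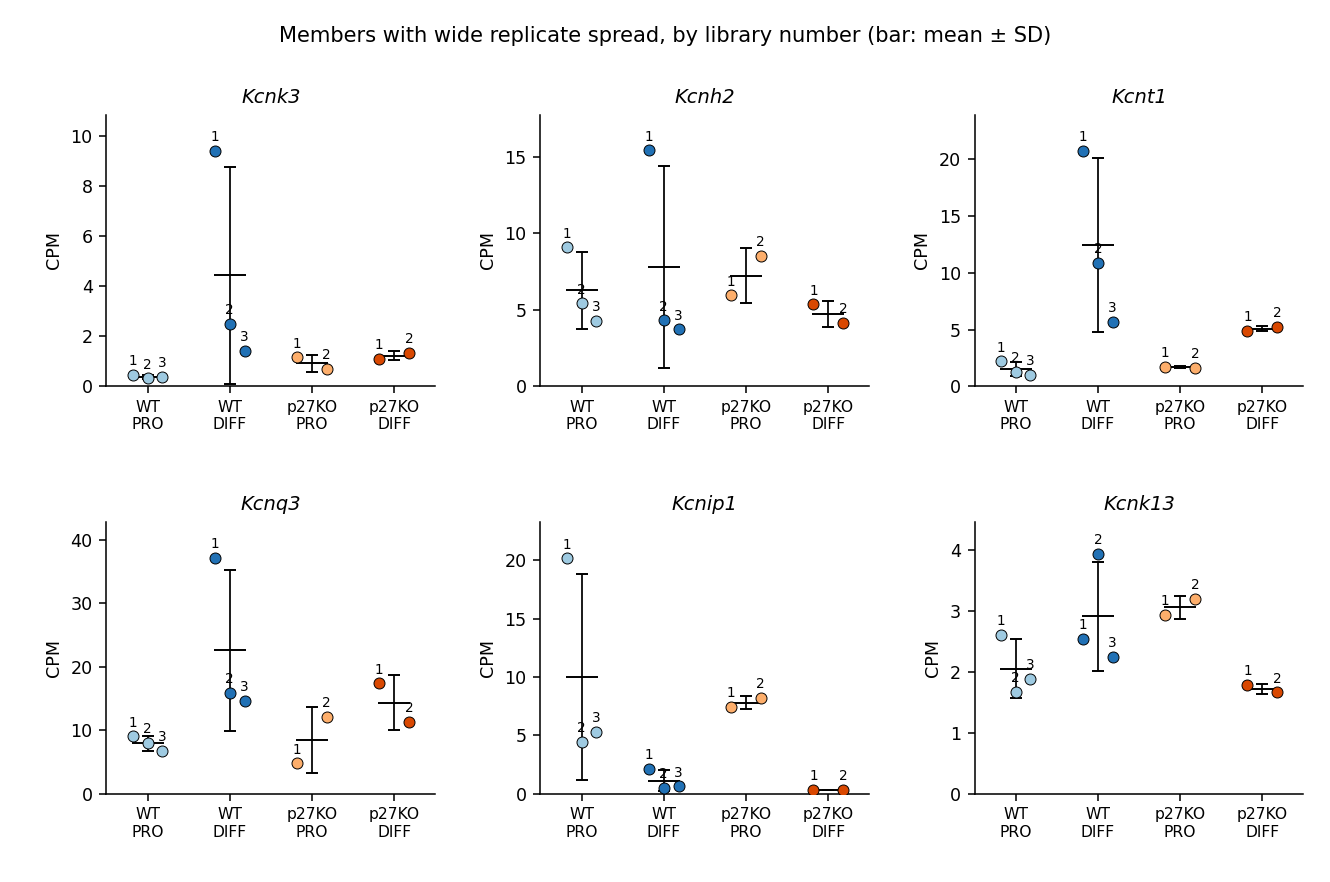
CPM of Kcnk3, Kcnh2, Kcnt1, Kcnq3, Kcnip1 and Kcnk13 in each of the 10 libraries, each point carrying its replicate number. WT_DIFF 1 is the highest of the 3 WT_DIFF libraries for all but Kcnk13, with Kcnk3 at 9.41 against 2.49 and 1.42.

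In the cells labelled p27KO, 35 of the 63 tested members changed from PRO to DIFF, 18 upwards and 17 downwards, and 28 did not pass. This was 55.6% of the members against 51.6% of all genes tested (28.6% against 24.3% rose and 27% against 27.3% fell), and the median log2 fold change was 0.45 against -0.01 over all genes. By subfamily, 3 inward rectifiers rose and 2 fell (median of 1.32), as did 2 and 2 two-pore subunits (0.30), 6 and 7 voltage-gated pore subunits (0.40), 5 and 3 calcium- or sodium-activated subunits (1.06) and 2 and 3 auxiliary proteins (0.52). The limit that the filter sets, given for the WT cells, holds for these shares and medians too. With the filter of the study 9 rose and 9 fell. With 2 libraries a group, this comparison had less power than that of the WT cells. Of the 63 members, 17 rose in both genotypes, 16 fell in both, 15 passed in WT cells alone, 2 in p27KO cells alone and 13 in neither. These joint counts were not made over all genes, of which 62.1% passed in WT and 51.6% in p27KO cells. They therefore do not set the members apart from other genes. The groups share no library, but both comparisons share 1 estimate of the spread.

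The members that passed in the same direction in both genotypes included the abundant Kcnj10 and Kcnk2, and some others had values of another size. Kcnj10 was at 367 and 368 CPM in p27KO_PRO and 1114 and 1248 in p27KO_DIFF (1.58 ± 0.12, adjusted p = 6.63e-06), and Kcnk2 at 35.9 and 37.3 and at 333 and 264 (2.93 ± 0.15, adjusted p = 1.05e-06). Kcnn3 rose by 2.11 ± 0.25, Kcnn2 by 3.70 ± 0.43 and Kcnn1 by 1.14 ± 0.22, and Kcnma1 (-2.55 ± 0.25), Kcnn4 (-2.92 ± 0.49), Kcnk5 (-2.46 ± 0.36), Kcng1 (-2.95 ± 0.38), Kcnf1 (-3.27 ± 0.41) and Kcnip3 (-1.99 ± 0.25) fell. The ratio of the SK genes to Kcnma1 per kb was 0.994 and 1.13 in p27KO_PRO and 22.7 and 32.2 in p27KO_DIFF. Kcnj6 had 2 counts over the p27KO_PRO libraries and 137 over p27KO_DIFF, a ratio of 64.3 with an exact 95% counting interval of 17.5 to 536. For Kcne1l these were 1 and 117 counts, a ratio of 110.0 (19.3 to 4370), and for Kcnmb1 11 and 0 counts, at least 3.91-fold lower. The fitted value of Kcne1l, 6.37 on the log2 scale, was 5.395 without p27KO_PRO 1 and 8.795 without p27KO_PRO 2. Kcnj16 fell by 2.05 ± 0.15 against 1.29 ± 0.12 in WT cells, Kcnt1 rose by 1.49 ± 0.55 against 2.96 ± 0.46, and Kcnk3, which rose by 3.40 ± 0.69 in WT cells, did not pass (0.30 ± 0.78).

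The members that passed in p27KO cells alone were both two-pore genes. Kcnk10 was at 2.40 and 1.28 CPM in p27KO_PRO and 3.17 and 5.04 in p27KO_DIFF (1.05 ± 0.33, adjusted p = 0.021), and did not pass without p27KO_PRO 2 (0.127) or p27KO_DIFF 2 (0.173) or in a fit of the compared groups alone (0.0602). As given above, it passed in WT cells too under several alternatives. Kcnk13, a leak channel known from microglia, was at 2.93 and 3.20 CPM and at 1.78 and 1.66 (-0.93 ± 0.34, adjusted p = 0.0445), and did not pass when WT_PRO 2, WT_PRO 3 or any p27KO library was left out (0.0522 to 0.159). Kcnk13 also did not pass with DESeq2 (0.059), with the filter of the study (0.0518) or with no filter (0.0706). Microglial markers were near 0 in these libraries, as given above. With the replicate number as a block neither passed (0.0501 and 0.0709).

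Other p27KO calls that a single library decided were those of Kcna2 (-0.51, without any of the 4 p27KO libraries, adjusted p of 0.0585 to 0.150), Kcnt1 (1.49, without WT_PRO 2, WT_DIFF 2 or any p27KO library, 0.0581 to 0.153) and Kcnv1 (-1.67, without p27KO_PRO 1 or either p27KO_DIFF library, 0.0674 to 0.0809). Kcnd3 (-0.39) did not pass without p27KO_PRO 2 or p27KO_DIFF 2 (0.115 and 0.121), and Kcnh5 (1.46) without p27KO_PRO 2 or p27KO_DIFF 1 (0.144 and 0.124). Without p27KO_DIFF 1 neither Kcna3 (-1.60, then 0.0527) nor Kcnj4 (-1.86, then 0.0532) passed. Kcnab1 (1.80, then 0.0593) and Kcnq5 (-1.01, then 0.0677) did not pass without p27KO_DIFF 2, nor Kcnj9 (2.56, then 0.0507) without p27KO_PRO 2. Conversely, Kcnc1 and Kcnd2 passed without p27KO_PRO 1 (adjusted p = 0.0276 and 0.0438), Kcnc1 also without WT_PRO 3 (0.0482), and Kcna1 without p27KO_PRO 2 (0.0467). Kcnip4 passed without p27KO_PRO 1 (0.0218) or p27KO_DIFF 1 (0.0481), Kcnip2 without WT_DIFF 1 (0.046), Kcnmb4 without WT_DIFF 1 (0.0203) and Kcne2 without p27KO_PRO 1 (0.0485). With the block, Kcna2 did not pass (0.0549), while Kcnmb4 did (0.0258).

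Whether the stage change itself differed between the genotypes was tested as an interaction. No member passed with edgeR (0.28% of all genes tested did). Of the 63 members 5 had an unadjusted p under 0.05, against 651 of all 16797 genes tested (3.88%). With DESeq2, where 32 members had no adjusted p, 1 passed. That gene was Kcnj16, which fell by 1.29 in WT and by 2.05 in p27KO cells, a difference of -0.77 ± 0.18 (adjusted p = 0.244 with edgeR and 0.0197 with DESeq2). The other 4 were Kcnk13 (-1.33 ± 0.44, adjusted p = 0.757), Kcnk3 (-3.10 ± 1.04, adjusted p = 0.794), Kcne1l and Kcnj6, whose fitted values are not given because they rest on groups at 1 count and at 0 to 2 counts. Kcnk3, for instance, was at 1.16 and 0.689 CPM in p27KO_PRO and 1.11 and 1.35 in p27KO_DIFF (0.30, adjusted p = 0.768), next to the rise in WT cells to which WT_DIFF 1 contributed most.

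After mitogen withdrawal, 1 of the 63 members differed between the genotypes, or 1.59% against 1.49% of all genes tested, and it was lower in p27KO_DIFF, as were 0.119% of all genes (1.37% were higher). It was again Kcnj16, at 28.9 and 26.2 CPM in p27KO_DIFF (27.6 ± 1.90, SD, n = 2) and 54.9, 51.0 and 58.1 in WT_DIFF, with a log2 fold change of -0.97 ± 0.14 (adjusted p = 0.00527). The groups did not overlap, but the call was lost without p27KO_DIFF 1 (-1.05, adjusted p = 0.0507) or p27KO_DIFF 2 (-0.89, adjusted p = 0.0812). Its partner Kcnj10 stood at 1114 and 1248 CPM against 847, 754 and 947, without overlap, and did not pass (0.50 ± 0.11, adjusted p = 0.0644). It passed with DESeq2 (0.000686), with no filter (0.0333), with a block shared by the genotypes (0.0299) and without WT_DIFF 3 (0.0443). It did not pass with DESeq2 size factors in edgeR (0.0572) or in a fit of the compared groups alone (0.184). The ratio of Kcnj10 to Kcnj16 per kb was 28.1 and 34.7 in p27KO_DIFF and 10.8 to 11.9 in WT_DIFF. In neurospheres it was 2.36 and 2.66 in p27KO_PRO and 1.31 to 2.00 in WT_PRO.

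Of the 63 tested members, 13 had an unadjusted p under 0.05 in that comparison, against 2095 of all 16797 genes tested (12.5%). Besides the inward rectifiers Kcnj16, Kcnj10 and Kcnj2 (-0.65 ± 0.25), these included Kcnk2 (0.39 ± 0.13), Kcnk3, Kcnk13, Kcnn1 (-0.56 ± 0.20), Kcnn2 (-0.94 ± 0.32), Kcnt1 (-1.26 ± 0.48), Kcnd2 (-0.43 ± 0.17) and Kcne1l (1.05 ± 0.39). Kcnt1 passed with a block shared by the genotypes (0.0452). The markers of dividing cells differed between the same groups, as given above, and their part in these values was not tested. The WT libraries enter both the WT stage change and this comparison.

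In neurospheres none of the members differed between the genotypes with edgeR, against 0.0536% of all genes tested (0.0238% higher and 0.0298% lower), and none did with DESeq2. An unadjusted p under 0.05 was found for 3 members and for 4.55% of all genes, among them Kcnj10 (0.43 ± 0.11) and Kcnk2 (0.30 ± 0.13). Kcnj10 measured 367 and 368 CPM in p27KO_PRO and 251 to 298 in WT_PRO, ranges that do not overlap.

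Some members lie next to each other in the genome, and neighbours moved together in some cases and apart in others. Kcnj9 and Kcnj10 on chromosome 1 lie 11.9 kb apart and point away from each other, and both rose in WT cells. Kcna3 and Kcna2 on chromosome 3, 63.1 kb apart, both fell. Kcna1 and Kcna6 on chromosome 6, 61.9 kb apart, moved in opposite directions, and on chromosome 11 Kcnj16 fell while Kcnj2, 38.2 kb away, did not pass. Kcnmb1 lies within the span of Kcnip1 on chromosome 11, on the opposite strand, and both fell.

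Genes that work with potassium channels were described by the same test. Of all genes tested, 30.8% rose and 31.2% fell in WT cells, and 24.3% rose and 27.3% fell in p27KO cells. These shares are the background for the counts of each list, here and in the next paragraph. Of 14 genes of sodium and potassium pumps, 9 were tested and 6 rose and 2 fell in WT cells, with Atp1b2, the beta subunit of astrocytes, at 2.42 ± 0.16. The subunit Atp1b3 fell (-0.80 ± 0.08). Summed over the list, pump genes were at 903 to 1130 CPM in WT_PRO and 3150 to 4050 in WT_DIFF. Of 7 tested cation-chloride cotransporters 4 rose, among them Slc12a5, the chloride extruder of neurons (1.01, adjusted p = 0.00443).

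Of 13 tested pores of sodium and calcium channels 7 rose and 3 fell, with Scn3a (4.64, adjusted p = 2.88e-07) and Cacna1e (3.66, adjusted p = 2.55e-06) among those that rose and Scn11a (-1.29, adjusted p = 0.0205) among those that fell. Of 9 tested clustering and anchoring proteins 5 rose and 2 fell, including Sntb1, a syntrophin (2.33), and Ank3, which anchors channels at the axon initial segment (-1.79). Of 3 tested Hcn genes 1 rose (Hcn4, 2.63), and of 3 tested partner subunits 1 (Dpp6, which joins Kcnd channels, 0.98). In p27KO cells 5 pump genes rose and 2 fell, and the numbers were 3 and 0 for the cotransporters, 6 and 1 for the sodium and calcium channels, 5 and 2 for the clustering proteins, 0 and 0 for Hcn genes and 1 and 0 for partner subunits. No gene of these lists passed in a genotype comparison or in the interaction.

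The 31 members that were not tested reached at most 21 counts in a library, and 6 of them (Kcna7, Kcne1, Kcne3, Kcnj1, Kcnk16 and Kcnk9) had 0 counts in all 10. They included Kcnj8, a pore of pericyte and smooth muscle channels gated by ATP, with 7 counts in all, and Kcnj13, Kcnq1 and Kcnk18. Of the 31 members, 25 had at least 1 count and were thus detected but too low to test. For the 6 at 0 counts, a level too low for this depth could have been missed. Of the tested members 38 had at least 10 counts in every library and 25 fell below that in at least 1. The counting was not stated to use strand, and 22 tested members overlap another annotated gene in exons, among them Kcnd3, Kcnk2, Kcnma1 and Kcnn2, so that reads of both could not be told apart there.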

How the data were processed

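RNA-seq was analysed for 10 libraries in 4 groups. According to the study's methods and the labels, RNA was converted to cDNA with the Ovation RNA-seq System V2, STAR placed the reads on the mouse transcriptome of Ensembl and RSEM estimated how many came from each gene. The values the authors deposited are these estimated counts (RSEM's expected count), whole and not normalized. The submitters' processing notes also name FastQC, Trimmomatic, cutadapt and DESeq2 and the builds GRCm38 and mm10, and whether counting used strand is not given in the sources used here. Each of the 10 columns carries the title of its sample, and 0 columns were left unused.

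Of 48795 Ensembl identifiers, 48435 were matched to a symbol in the annotation of GRCm38. Genes with at least 10 counts in at least 2 libraries were kept, libraries were scaled by TMM, and all 4 groups were fitted together with edgeR 4.0.16 (robust quasi-likelihood test, two-sided, limma 3.58.1, R 4.3.3). Adjusted p-values are those of Benjamini and Hochberg over the 16797 genes tested, with a threshold of 0.05. CPM relate a count to the plain total of its library, with no TMM factor, and were divided by the exon length for values per kb. Fitted log2 fold changes used a prior count of 0.125. Where a group held 3 or fewer counts, the ratio of summed counts with its exact 95% interval was given, or, for 0 counts, a bound against a floor of 3 counts over the group, which cover counting error only. With totals of 19190068 to 25291674 counts, counting error was small for the abundant members, where the spread between libraries set the precision. It was larger for members with few counts, and 25 tested members fell below 10 counts in at least 1 library. The labels call the replicates biological, but what their numbers mark is not given.

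The members and gene lists were chosen with earlier results of these data known. Named were, in each subfamily, up to 4 members with the largest increase and 4 with the largest decrease that passed in WT cells and reached a mean of 0.5 CPM in a WT group, every member that passed in a genotype comparison, and the 10 with the highest level. The remaining members that passed, those with wide spread and those not tested were added after their values were seen, to account for the members. Some results for single genes are not reported here. Markers and partner genes came from fixed lists.

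The alternatives were DESeq2 1.42.0, its size factors in edgeR, the filter of the study (a gene was discarded when it had less than 1 CPM in at least 4 libraries), no filter, a minimum absolute log2 fold change of 1, a fit of the compared groups alone, the replicate number as a block and each library left out in turn. Deviations from the group means correlated across genes at 0.162, 0.221 and 0.233 between WT libraries of the same number and at -0.156 to -0.0508 between those of different numbers, so that the numbers pair the WT libraries. The reported fit has no block, and the value with the block is given where it changes the call of a gene reported. For p27KO the value was -0.118. Replicates differed by more than sampling noise (chi-square per gene of 12.6 to 54.1). The steps were tested on simulated counts. Sequences came from RefSeq starts on GRCm38.p6, found for 69 of the 94 members, and tables and plots were made with Python 3.11.15, pandas 2.3.3, scipy 1.17.1 and matplotlib 3.10.9.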

Additional observations from a re-analysis of the deposited data

How the results depend on the processing

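Of 84 calls of single genes over the comparisons, 62 kept call and direction under all 18 alternatives other than the minimum fold, and 10 lay below a log2 fold change of 1. The filter of the study left 32 members, with 14 higher and 11 lower in WT and 9 higher and 9 lower in p27KO cells. Its median log2 fold changes in WT cells were 0.43 (all members), 0.42 (inward rectifiers), 0.61 (two-pore), 1.79 (calcium- or sodium-activated) and -1.24 (auxiliary), and in p27KO cells 0.18 (all members), 0.21 (inward rectifiers), -0.32 (voltage-gated pores), 1.21 (calcium- or sodium-activated) and -1.44 (auxiliary). Fewer members enter, so that the auxiliary medians, over 3 genes, changed sign. With no filter, 88 members gave a median of 0.48 in WT cells, 0.00 for the voltage-gated pores of p27KO cells, and 1 member higher in p27KO_DIFF than in WT_DIFF. In that genotype comparison DESeq2 and the block shared by the genotypes each gave 1 higher and 2 lower, and the minimum fold 0 lower. In the interaction DESeq2 gave 1 lower. The cause of these differences was not tested.

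Leaving out 1 library gave 25 to 31 higher and 16 to 18 lower in WT cells, 14 to 20 and 12 to 17 in p27KO cells, 0 to 1 higher and 0 to 1 lower in p27KO_DIFF against WT_DIFF, and 0 in neurospheres and in the interaction. The medians in WT cells then ranged from 0.57 to 0.67 (all members), 0.82 to 1.04 (inward rectifiers), 0.27 to 0.62 (two-pore), 0.43 to 0.63 (voltage-gated pores), 1.12 to 1.45 (calcium- or sodium-activated) and 1.35 to 1.64 (auxiliary). In p27KO cells they ranged from 0.38 to 0.59, 0.96 to 1.55, -0.0090 to 0.72, 0.13 to 0.40, 1.04 to 1.09 and -0.071 to 0.99 in the same order. Directions of genes that had not passed turned for Kcnh2 in WT cells with the block (-0.0079), with the crossed block (-0.0027) and without WT_DIFF 1 (-0.72), and in p27KO cells for Kcne2 (-0.21) and Kcnk3 (-0.0090) without p27KO_PRO 2. The highest values with a library left out were 0.58 for Kcnh2, 5.115 for Kcne2 and 0.72 for Kcnk3.

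With the replicate number as a block nested in genotype, 30 members rose and 17 fell in WT cells and 20 and 15 in p27KO cells, and the block changed no call of a member in these comparisons other than those given with the genes and those not reported. Crossing the p27KO numbers, an alternative chosen after seeing the data, gave 33 and 18 in WT cells and 22 and 16 in p27KO cells. Depth limits the members near the filter, 25 of which fell below 10 counts in at least 1 library.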
